A study of Mus musculus with 11 samples.

Results

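The heme biosynthesis genes Alas1, Alas2, Slc25a38, Alad, Uros, Urod, Cpox, Ppox and Fech were analyzed in the RNA-seq of Pde2A-/- and Pde2A+/+ embryonic mouse hearts. These 9 genes were set by their symbols among 55487 genes in the files, with earlier results of these data known. Each was found under 1 Ensembl identifier. Pde2A is a phosphodiesterase that hydrolyzes cAMP and cGMP. The hearts came from untreated E14.5 embryos of the strain B6; 129P2-Pde2A<tm1Dgen>, of matings between Pde2A+/- mice, with 1 stranded mRNA library for each of 5 Pde2A-/- and 6 Pde2A+/+ hearts. The mutation is carried in the germline and not limited to a cell type, so the heart muscle and the blood within a heart share its genotype. The study used embryos of both sexes, and neither the sex nor the litter of single hearts was given, so that the p-values measure the spread between these hearts alone.

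Heme is built from glycine and succinyl-CoA along a path that starts in the mitochondrion, continues in the cytosol and ends in the mitochondrion, where iron is inserted into protoporphyrin. The first reaction is catalyzed by 5-aminolevulinate synthase, which has a housekeeping form, Alas1, repressed by heme, and an X-linked erythroid form, Alas2, driven by GATA1 and restrained in translation when iron is scarce. Every cell needs heme for cytochromes, and in the embryonic heart it serves the respiratory chain of cardiomyocytes, while the red cell precursors that circulate through the chambers make far more of it for hemoglobin.

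Between 35865537 and 42835382 reads per heart lay on the sense strand of a gene, and the totals did not differ between the genotypes beyond their spread (exact permutation test, two-sided, p = 0.87). The targeted gene Pde2a had 0 to 2 counts in each library and 7 in all, too few to check the genotype labels. Of the exon bases of Pde2a 64.3% also lie in exons of Gm45837 on the same strand, and STAR gives reads on more than 1 gene to none. The other 2194 exon bases are not shared, and the cause of the low counts was not tested. These counts were therefore not taken as a measure of Pde2a expression. A library was divided by its TMM-normalized size and given in CPM, counts scaled to a common library size, in which 1 CPM stood for 36.0 to 42.4 reads. The lowest count of any of the 9 genes in any heart was 501, for Slc25a38. All 9 passed the filter of 10 counts over the 11 hearts, together with 24177 genes in all. Genotypes were tested in edgeR with quasi-likelihood F-tests, the p-values were adjusted over all 24177 genes by the Benjamini-Hochberg method, and genes with an adjusted p below 0.05 are referred to as called.

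Promoters were read for the gene with the largest change, Cpox, and for the erythroid synthase Alas2. Sequences are from RefSeq, GRCm38.p6, 5′ to 3′ on the strand of the gene, and capitals mark matches on either strand to the GATA hexamers AGATAA and TGATAA or to CACCC, the letters bound by GATA1 and KLF1, which do not overlap each other. The Alas2 window, chrX:150547167-150547374 on the plus strand, holds the 208 bases of the 250 before the start that lie outside annotated exons, and the Cpox window, chr16:58669958-58670207 on the plus strand, holds all 250.
Alas2: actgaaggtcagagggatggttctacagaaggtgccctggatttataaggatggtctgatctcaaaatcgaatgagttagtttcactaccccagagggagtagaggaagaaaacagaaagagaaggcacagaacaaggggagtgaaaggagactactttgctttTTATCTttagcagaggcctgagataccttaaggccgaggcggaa
Cpox: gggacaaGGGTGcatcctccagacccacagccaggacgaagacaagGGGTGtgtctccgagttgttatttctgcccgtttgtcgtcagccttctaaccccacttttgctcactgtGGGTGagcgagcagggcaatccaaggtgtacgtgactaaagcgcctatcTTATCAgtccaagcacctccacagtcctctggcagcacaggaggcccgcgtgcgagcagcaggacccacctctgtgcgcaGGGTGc

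Both windows held 1 GATA match, and that of Cpox held 4 CACCC matches. The full 250 bases of Alas2 held 3 CACCC matches, all of them reaching beyond the printed bases. RefSeq promoters were at hand for 8 of the 9 genes, 11 promoters in all. A GATA hexamer lay in the 250 bases before the start in 3 of these 11 (27.3%) and in 16.6% of all 32851 promoters, and CACCC in 6 of 11 (54.5%) against 52.0%. The share of CACCC was thus near that of all promoters, and 11 promoters give no firm share of either. The 3 promoters with a GATA hexamer were those of Alas2 and Cpox, both printed here, and 1 of Uros. Slc25a38, Alad, Urod and Ppox, which rose as well, had no GATA hexamer there, and Urod and Ppox had no CACCC either.

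Alas2 alone among the 9 genes had an iron-responsive element before its coding sequence, the hairpin to which iron regulatory proteins bind. It was searched in GENCODE transcripts as C, 5 bases, CAGTGN and 5 bases that pair with the first 5, G with T counted as a pair. The site lay at chrX:150547464-150547480 on the plus strand, in the 5′ exon of 2 of 2 coding Alas2 transcripts, and is printed with its loop in capitals.
Alas2 element: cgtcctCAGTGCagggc

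The same letters were found before the coding sequence of 31 of 20883 genes (0.15%) and in no transcript of the other 8 genes. RNA counts do not read the translation that this element controls.

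Of the 9 heme biosynthesis genes 6 rose in Pde2A-/- hearts, 1 fell and 2 were not called. Slc25a38, Alad, Uros, Urod, Cpox and Ppox rose, Alas1 fell, and Alas2 and Fech did not pass the test. Over all genes 14.6% were called, 8.93% upward and 5.67% downward. The 9 genes had a median log2 fold change of 0.44, against -0.02 over all genes tested. Cpox was the only one called with a fold change of at least 2, which 2.21% of all genes reached upward and 0.372% downward. The hearts of the genotypes did not overlap for Slc25a38, Alad, Urod, Cpox and Ppox, all 5 of them higher in Pde2A-/-, while among all genes the genotypes did not overlap for 8.49%, 5.38% upward and 3.11% downward.

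**Figure D1:**
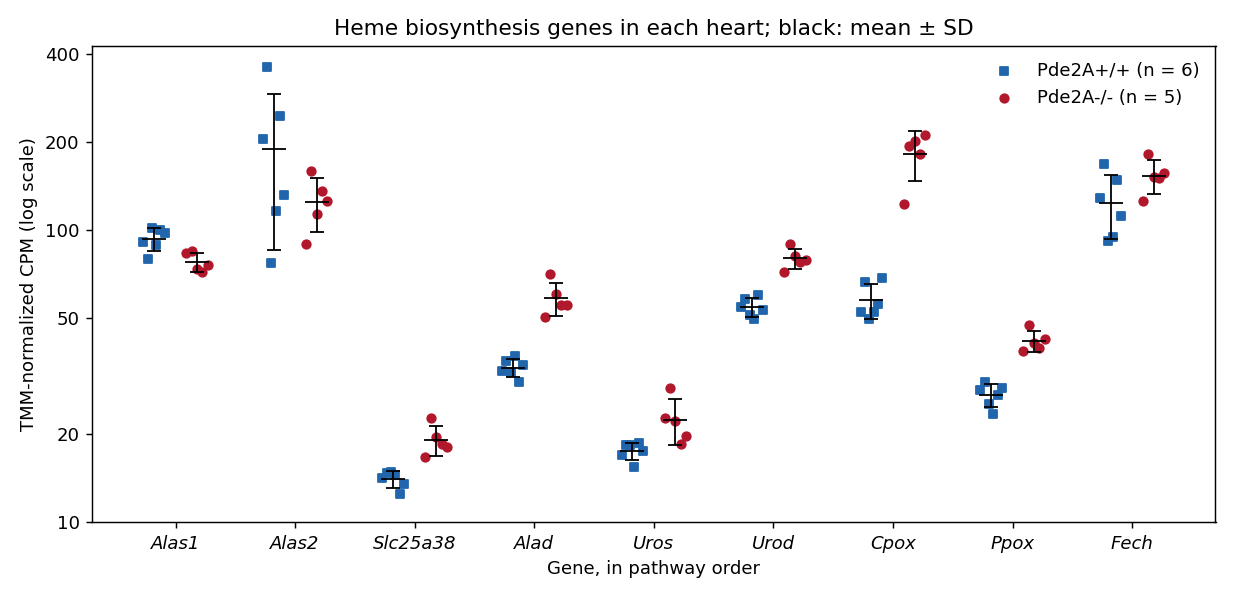
Level of the 9 heme biosynthesis genes in each heart, in pathway order, as TMM-normalized CPM on a log axis, with blue squares for the 6 Pde2A+/+ and red circles for the 5 Pde2A-/- hearts, and black bars for the mean ± SD. Cpox lies between 122.1 and 211.0 CPM in Pde2A-/- and between 49.7 and 68.7 CPM in Pde2A+/+ hearts, while the Pde2A-/- values of Alas2 all lie within the wide Pde2A+/+ range of 77.0 to 359.6 CPM.

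Alas1 (ENSMUSG00000032786), the housekeeping synthase on chromosome 9 from 106233455 to 106248654, was the only one of the 9 that fell. Its levels were 83.1, 84.6, 73.5, 71.9 and 75.6 CPM in Pde2A-/- replicates A, B, 14, D and 15, against a lowest, median and highest of 79.8, 94.2 and 101.4 CPM in the 6 Pde2A+/+ hearts. Replicates 14, D and 15 lay below every Pde2A+/+ heart, while replicates A and B lay above the lowest of these, replicate 11. The log2 fold change was -0.26 ± 0.07 (SE), with an adjusted p of 0.0253 by edgeR. This call was lost when any of Pde2A-/- replicates 14, D or 15 or Pde2A+/+ replicates 6 or E was left out, with log2 fold changes between -0.25 and -0.23 and adjusted p between 0.0502 and 0.0696.

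Alas2 (ENSMUSG00000025270), the erythroid synthase on chromosome X from 150547375 to 150570638, varied most between hearts of 1 genotype. Its levels were 89.1, 158.5, 113.4, 135.3 and 125.1 CPM in Pde2A-/- replicates A, B, 14, D and 15. The Pde2A+/+ hearts had 205.1, 359.6, 77.0, 116.1, 244.4 and 131.9 CPM in replicates 7, 11, 6, 8, H and E. The Pde2A+/+ hearts thus spanned a 4.67-fold range that enclosed every Pde2A-/- heart, whose own range was 1.78-fold. The coefficient of variation was 54.8% in Pde2A+/+ and 20.7% in Pde2A-/- hearts, and for the other 8 genes it was at most 24.7%, for Fech in Pde2A+/+. The log2 fold change of Alas2 was -0.61 ± 0.32 (SE, adjusted p = 0.221 by edgeR), and it ranged from -0.76 without Pde2A+/+ replicate 6 to -0.32 without Pde2A+/+ replicate 11. With the Xist level as a covariate, which stands for the sex of the embryo, it was -0.45 (adjusted p = 0.365). A difference in Alas2 was therefore not detectable against this spread.

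Slc25a38 (ENSMUSG00000032519), the mitochondrial carrier that brings glycine to the first step, rose on the same chromosome 9 from 120110374 to 120124504. It had 16.8, 22.7, 19.5, 18.5 and 18.1 CPM in Pde2A-/- replicates A, B, 14, D and 15, and 12.5, 14.4 and 14.9 CPM as the lowest, median and highest of the Pde2A+/+ hearts. Every Pde2A-/- heart was above every Pde2A+/+ heart, by a 1.36-fold change with a log2 value of 0.44 ± 0.08 (SE, adjusted p = 0.00349 by edgeR).

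The cytosolic enzymes rose by less than 2-fold. Alad (ENSMUSG00000028393; chromosome 4 from 62509169 to 62519918), which joins 5-aminolevulinate molecules into porphobilinogen, had 50.5, 70.4, 60.5, 55.4 and 55.4 CPM in Pde2A-/- replicates A, B, 14, D and 15, against 30.2, 33.6 and 36.9 CPM as the lowest, median and highest in Pde2A+/+. The genotypes were well apart for Alad, whose log2 fold change of 0.79 ± 0.08 (SE, adjusted p = 3.71e-05 by edgeR) was the second in size. Urod (ENSMUSG00000028684; chromosome 4 from 116989965 to 116994413), the uroporphyrinogen decarboxylase, had 72.0, 89.5, 81.3, 77.9 and 79.1 CPM in the same Pde2A-/- hearts and 49.5, 53.9 and 59.8 CPM in Pde2A+/+. The genotypes did not overlap for Urod either, and its log2 fold change was 0.56 ± 0.06 (SE, adjusted p = 0.000106 by edgeR).

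Uros (ENSMUSG00000030979; chromosome 7 from 133686243 to 133710072), the uroporphyrinogen III synthase, gave the least firm of the 6 rises. It had 22.8, 28.8, 22.1, 18.6 and 19.7 CPM in Pde2A-/- replicates A, B, 14, D and 15 and 15.5, 17.9 and 18.6 CPM in Pde2A+/+ hearts. Of the 5 Pde2A-/- hearts 4 were above every Pde2A+/+ heart, and replicate D lay just within their range. Its log2 fold change was 0.35 ± 0.10 (SE, adjusted p = 0.0332 by edgeR). The call was lost without Pde2A-/- replicate 14 or without Pde2A+/+ replicates 7, 6, 8 or E, with adjusted p between 0.0519 and 0.0672 and log2 fold changes between 0.32 and 0.37. Without Pde2A-/- replicate B, the highest heart, the log2 fold change was 0.25 and the call was kept (adjusted p = 0.0402).

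Cpox (ENSMUSG00000022742; chromosome 16 from 58670292 to 58717636), the coproporphyrinogen oxidase of the mitochondrial intermembrane space, changed most. It had 122.1, 192.8, 201.9, 181.0 and 211.0 CPM in Pde2A-/- replicates A, B, 14, D and 15. The Pde2A+/+ hearts had 52.5, 66.3, 49.7, 52.2, 55.6 and 68.7 CPM in replicates 7, 11, 6, 8, H and E. The lowest Pde2A-/- heart, replicate A, was still above the highest Pde2A+/+ heart, replicate E. The means were 181.7 ± 35.2 and 57.5 ± 8.01 CPM (SD, n = 5 and 6), a 3.16-fold rise with a log2 fold change of 1.66 ± 0.13 (SE, adjusted p = 6.75e-06 by edgeR). Across 20 alternative settings it stayed between 1.60 and 1.82 and was called in 20 of 20.

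Ppox (ENSMUSG00000062729; chromosome 1 from 171275990 to 171281186), which oxidizes protoporphyrinogen at the inner membrane, rose as well. It had 38.4, 47.3, 41.0, 39.5 and 42.4 CPM in Pde2A-/- replicates A, B, 14, D and 15 and 23.5, 27.7 and 30.1 CPM as the lowest, median and highest in Pde2A+/+, without overlap, and a log2 fold change of 0.62 ± 0.07 (SE, adjusted p = 0.000122 by edgeR). B4galt3 lies on the opposite strand over 17.5% of the exon bases of Ppox, and up to 40.3% of the reads at Ppox in a heart were on that strand, against at most 2.402% for the other 8 genes. The counts used here were those of the sense strand, and with both strands counted the log2 fold change of Ppox was 0.63.

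Fech (ENSMUSG00000024588; chromosome 18 from 64452914 to 64490251), the ferrochelatase that inserts iron in the last step, did not pass the test. It had 125.0, 181.4, 152.1, 150.1 and 155.9 CPM in Pde2A-/- replicates A, B, 14, D and 15. The Pde2A+/+ hearts had 128.0, 168.4, 91.3, 94.6, 148.2 and 111.9 CPM in replicates 7, 11, 6, 8, H and E. Replicate B of the Pde2A-/- hearts lay above every Pde2A+/+ heart, and the others lay among them. The log2 fold change was 0.31 ± 0.15 (SE, adjusted p = 0.185 by edgeR).

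The replicate names are letters in some hearts and numbers in others, which the labels do not explain. Within the 3 Pde2A-/- and 2 Pde2A+/+ hearts named by letters, and within the 2 and 4 named by numbers, each of the 9 genes differed in the same direction as in all hearts. The differences in mean log2 CPM were 1.39 and 1.91 for Cpox, 0.85 and 0.75 for Alad, and -0.53 and -0.43 for Alas2. With the naming style as a covariate, the adjusted p of Uros was 0.0511 (log2 fold change 0.32).

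Divided by length, in CPM per kb of all annotated exons, the erythroid synthase had the highest level of the 9 genes in both genotypes. In Pde2A+/+ hearts the mean level per kb was 78.7 ± 43.1 (SD, n = 6) for Alas2, 21.0 for Urod, 18.1 for Alad, 15.1 for Alas1, 8.94 for Fech, 8.63 for Cpox, 6.02 for Ppox, 5.12 for Slc25a38 and 4.90 for Uros. The ranges over the hearts overlapped for neighbours in this order, except for Alas2 above Urod, Alas1 above Fech and Cpox above Ppox.

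In Pde2A-/- hearts Cpox moved from the sixth to the fourth place. The mean level per kb was 51.7 ± 10.7 (SD, n = 5) for Alas2, 31.2 for Alad, 30.9 for Urod, 27.3 ± 5.28 for Cpox, 12.6 for Alas1, 11.1 for Fech, 9.24 for Ppox, 6.96 for Slc25a38 and 6.26 for Uros. The ranges of neighbours over the hearts overlapped here too, apart from Cpox above Alas1 and Ppox above Slc25a38. Within each single Pde2A-/- heart, Alas2 was also above Alad, Alas1 above Fech and Fech above Ppox. With the length of the principal transcript, an alternative chosen after seeing the data, Cpox had the second place in Pde2A-/- hearts at 58.7 CPM per kb, close to Alas2 at 61.0.

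**Figure D2:**
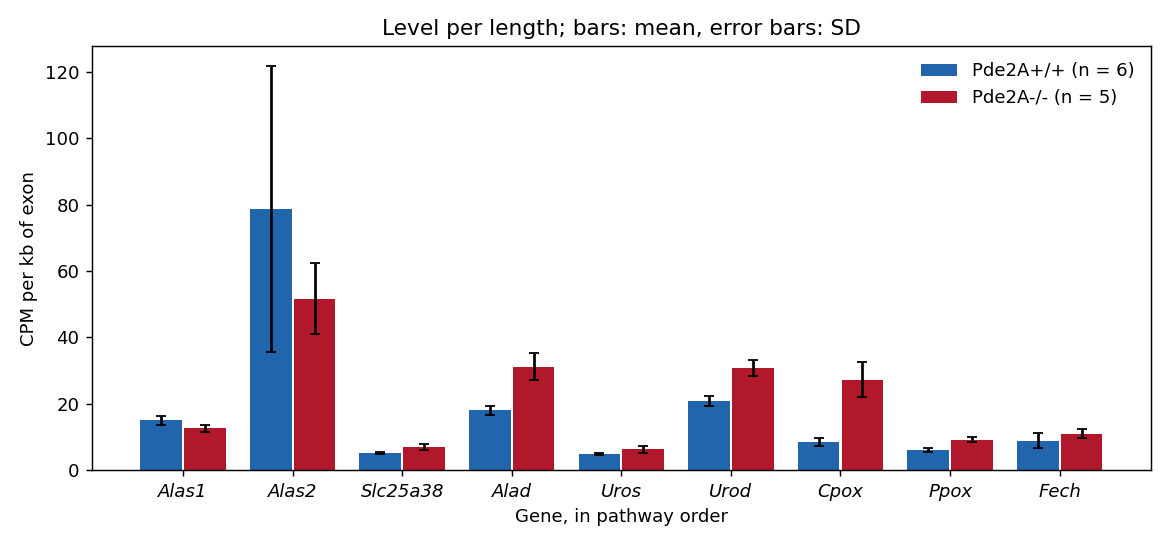
Level per length of the 9 genes, in CPM per kb of exon, as bars for the mean of the 6 Pde2A+/+ hearts in blue and the 5 Pde2A-/- hearts in red, with error bars for the SD. Alas2 is highest in both genotypes, at 78.7 and 51.7 CPM per kb, and Cpox rises from 8.63 to 27.3 CPM per kb.

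Over all hearts, the level of Alas2 followed that of adult globins most closely. Likeness was measured as the root mean square distance between log2 CPM profiles over the 11 hearts, each centred on its mean, among 14023 genes whose mean reached 1 CPM. Among the 5 nearest genes were the beta globin Hbb-bs at 0.10, the alpha globins Hba-a2 at 0.15 and Hba-a1 at 0.16, and Mkrn1, a ubiquitin ligase gene, at 0.29, where the median gene was at 0.64. Fech was the nearest of the other heme enzymes, at 0.51 and rank 88, and the remaining 7 ranked between 7597 and 13792. These ranks include the difference between the genotypes. With each genotype centred on its own mean, Fech ranked 28 (distance 0.33), Ppox 435 and Urod 438 (both 0.50) and Cpox 571 (0.51), while Uros, Alad, Slc25a38 and Alas1 ranked between 3069 and 11743. These profiles share libraries and their scaling, and Hba-a1 and Hba-a2, like Hbb-bs and Hbb-bt, are near-identical copies whose reads the counting can split or drop.

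The globins are the protein partners of heme in hemoglobin. Of 7 globin genes none was called higher, and Hbb-bt alone was called lower (log2 fold change -1.43, adjusted p = 0.0105 by edgeR). The distance of Hbb-bt to Alas2 was 0.425 over all hearts and 0.085, at rank 1, with each genotype centred on its own mean. The mice were of a mixed strain, and which globin alleles a heart carried was not given. Whether these alleles differed between the genotypes was not given either. A difference by allele and a difference by genotype can therefore not be told apart for Hbb-bt. The part of such alleles, or of their read mapping, in the values of Hbb-bt, the summed globins and their ratio to Alas2 was not tested. Without Pde2A+/+ replicate 11 the embryonic Hbb-bh1 was called higher (log2 fold change 1.002, adjusted p = 0.0487). Summed over the 7 genes, the level was 5574 to 8748 CPM in Pde2A-/- and 4580 to 16100 CPM in Pde2A+/+ hearts, highest in Pde2A+/+ replicate 11 and lowest in replicate 6, as for Alas2. The log2 fold changes of the embryonic genes Hba-x (0.22), Hbb-y (0.24) and Hbb-bh1 (0.79) and of Hba-a1 (-0.51), Hba-a2 (-0.70) and Hbb-bs (-0.51) did not pass the test. Within each library, log2 Alas2 minus log2 summed globins was -5.82 ± 0.28 in Pde2A-/- and -5.66 ± 0.25 in Pde2A+/+ hearts (SD, n = 5 and 6; exact permutation test, two-sided, p = 0.32, adjusted over 2 ratios 0.64). Log2 Alas2 minus log2 Alas1 was 0.65 ± 0.33 and 0.84 ± 0.89 (SD, n = 5 and 6; exact permutation test, two-sided, p = 0.68, adjusted 0.68). The latter difference, -0.19, turned to 0.08 without Pde2A+/+ replicate 11 (exact permutation test, p = 0.84).

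**Figure D3:**
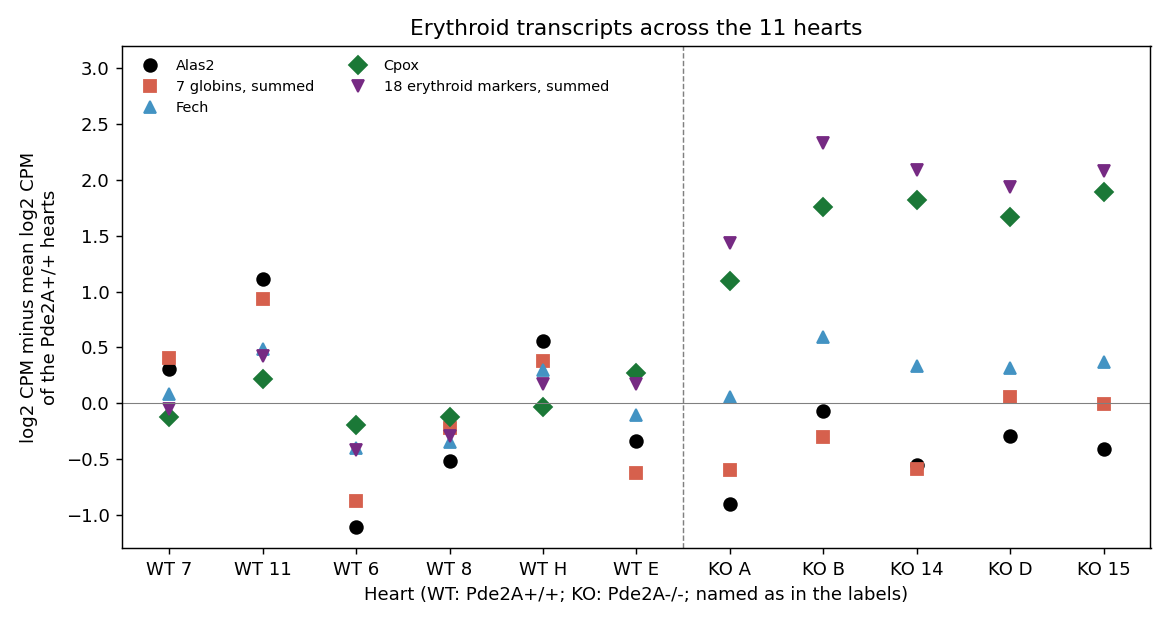
Log2 CPM in each heart minus the mean log2 CPM of the 6 Pde2A+/+ hearts (WT), for Alas2, Fech, Cpox, the sum of 7 globins and the sum of 18 erythroid markers, with the 5 Pde2A-/- hearts (KO) to the right of the dashed line. Alas2 and the globins are highest in WT 11 and lowest in WT 6, while Cpox and the erythroid markers stand above every WT heart in every KO heart.

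All 18 markers of erythroid cells rose in Pde2A-/- hearts, as did 6 of the 9 heme biosynthesis genes. The markers had a median log2 fold change of 2.66 and no overlap between the genotypes, among them the nuclear protein gene Hemgn (4.94), the Rh-associated glycoprotein Rhag (4.40) and the erythroid transcription factor Klf1 (4.10). Their summed level was 837.5 to 1559 CPM in Pde2A-/- and 231.6 to 415.7 CPM in Pde2A+/+ hearts, and none was at 0 in a whole genotype. Their part in the rise of the heme enzymes was not tested, and in these bulk samples more cells of a type and more RNA per cell cannot be told apart.

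Among the Pde2A-/- hearts, most heme enzymes and the summed erythroid markers shared their highest and lowest heart, while the order of the other hearts varied. Replicate B was highest for 8 of the 9 heme genes, all but Cpox, and replicate A was lowest for 7, all but Alas1 and Uros. The same replicates had the highest and the lowest summed erythroid level, 1559 and 837.5 CPM. Over the 14024 genes whose mean reached 1 CPM, replicate B was highest among the Pde2A-/- hearts for 22.4% and replicate A lowest for 25.5%. The Pde2A+/+ hearts shared less. Replicate 11, with the highest erythroid sum of 415.7 CPM, was highest among them for 3 heme genes and lowest for 1. Replicate 6, with the lowest sum of 231.6 CPM, was highest for 2 and lowest for 3. Over the 14024 genes, replicate 11 was highest among the Pde2A+/+ hearts for 17.4% and lowest for 22.9%. For replicate 6 these shares were 19.5% and 16.1%.

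Other cell types differed between hearts or genotypes too. Liver markers, of which none of 8 was called (largest change Apoa1, log2 fold change -2.94, adjusted p = 0.109 by edgeR), summed to between 39.8 and 117.5 CPM in Pde2A-/- replicate D and Pde2A+/+ replicates 11, H and E, and to at most 7.49 CPM in the other 7 hearts. With the naming style as a covariate Apoa1 was called lower (-3.71, adjusted p = 0.0312), and without Pde2A-/- replicate D 2 liver markers were called lower. The fetal liver is a site of red cell formation. Without these 4 hearts, an alternative chosen after seeing the data that left 4 against 3, Alad, Urod, Cpox and Ppox were still called higher, with log2 fold changes of 0.79, 0.64, 1.82 and 0.72. Slc25a38 (0.41, adjusted p = 0.103), Uros (0.46, 0.113) and Alas1 (-0.24, 0.138) were no longer called, Fech was at 0.55 (0.0967) and Alas2 at -0.13 (0.846), all by edgeR. All 18 erythroid markers were called in these 7 hearts.

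All 8 macrophage markers rose (median log2 fold change 0.98, led by Fcgr3, C1qc and C1qb), and their summed level was 202.1 to 265.5 CPM in Pde2A-/- and 98.2 to 153.1 CPM in Pde2A+/+ hearts. Macrophages break down red cells and their heme. Of 5 tested markers of megakaryocytes and platelets 3 rose, among them Ppbp and Pf4, and Gp1bb had 9 counts in all and was not tested. Of 8 cardiomyocyte markers Nppa rose (0.87) and Ttn fell (-0.51), and their sum, 25110 to 32620 and 25080 to 32010 CPM, overlapped throughout. The libraries were thus rich in the defining transcripts of heart muscle. Without the 4 hearts with liver transcripts, Nppa, Ttn and Hbb-bt kept their direction and were not called (adjusted p 0.0523 to 0.138 by edgeR). The part of these cells in the values of the heme enzymes was not tested.

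The other genes of heme metabolism were grouped by role. Of 11 genes for the transport of porphyrins and mitochondrial iron, 4 rose and 2 fell. Slc25a37, the mitoferrin that imports iron in erythroid cells, had 236.9 ± 51.1 CPM in Pde2A-/- and 59.4 ± 20.6 CPM in Pde2A+/+ hearts (SD, n = 5 and 6), a log2 fold change of 1.996 (adjusted p = 7.37e-05 by edgeR). Its widely expressed paralog Slc25a28 fell by 0.21 on the log2 scale (adjusted p = 0.0331). Abcb10, an inner membrane transporter that stabilizes mitoferrin, rose by 0.65 (6.69e-05), Abcb6, a porphyrin transporter, by 0.79 (0.00606) and Tspo by 0.23 (0.0239), while Tmem14c, a protoporphyrinogen carrier, was at 0.10 (0.327). The call of Slc25a28 was lost without any of Pde2A-/- replicates 14, D and 15 and Pde2A+/+ replicates 7, 11, 8, H and E (adjusted p 0.0510 to 0.0886). Slc25a28 and Tspo were named after their values were seen.

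Of 7 genes for substrate supply 2 rose, both on the glycine side, namely the glycine transporter Slc6a9 (log2 fold change 0.88, adjusted p = 0.000155 by edgeR) and Shmt2, which makes glycine from serine in mitochondria (0.54, 0.0148). The 5 genes of succinyl-CoA metabolism had log2 fold changes between -0.15 and -0.04 and were not called. Of 11 genes for iron-sulfur cluster assembly only Hscb, a cochaperone, was called higher (0.45, 0.0235), and of 3 genes for heme a and heme c Hccs, which attaches heme to cytochrome c, fell by 0.17 (0.0376). The call of Hscb was lost without Pde2A-/- replicates 14, D or 15 or Pde2A+/+ replicate 6 (adjusted p 0.0535 to 0.0658), and that of Hccs without Pde2A-/- replicates 14, D or 15 or Pde2A+/+ replicates 6, 8, H or E (0.0529 to 0.0983) and with no filter on counts (0.0505).

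Of 9 genes for heme breakdown and export 5 rose, and 4 did not pass the test. Hmox1, the inducible heme oxygenase, had 33.5 to 108.2 CPM in Pde2A-/- and 21.2 to 31.1 CPM in Pde2A+/+ hearts (log2 fold change 1.502, adjusted p = 0.00341 by edgeR). Blvrb, a biliverdin reductase abundant in red cells, rose by 1.20 (0.000163) and the heme-binding protein Hebp1 by 0.85 (9.51e-05). The heme exporter Flvcr1 was at -0.28 (0.0953), and without Pde2A-/- replicate B it was called lower at -0.35 (0.0349), as by DESeq2 at -0.27 (0.0423). Of 7 genes that sense heme or control its first step 3 rose, namely Bach1, a repressor released by heme (0.55, 0.00406), Eif2ak1, the kinase that slows translation when heme is short (0.38, 0.000637), and Ppargc1a, a coactivator of Alas1 (0.62, 0.0495). The call of Ppargc1a was kept only without Pde2A-/- replicates A or B or Pde2A+/+ replicate H, and in the other 8 fits without 1 heart its adjusted p was 0.0704 to 0.138, and with the naming style as a covariate 0.0530. The median log2 fold changes were 0.23 and 0.38 for these lists, 0.06 for transport, -0.07 for substrate supply, -0.06 for iron-sulfur clusters and -0.17 for heme a and heme c, against -0.02 over all genes.

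Without the 4 hearts with liver transcripts, Slc25a37 (log2 fold change 2.42), Abcb10 (0.65), Slc6a9 (0.90), Blvrb (1.34), Hebp1 (0.85) and Eif2ak1 (0.40) were still called. Abcb6, Tspo, Slc25a28, Hscb, Shmt2, Hmox1, Hccs, Ppargc1a and Bach1 kept their direction and were not called, with adjusted p between 0.112 and 0.376 by edgeR.

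**Figure D4:**
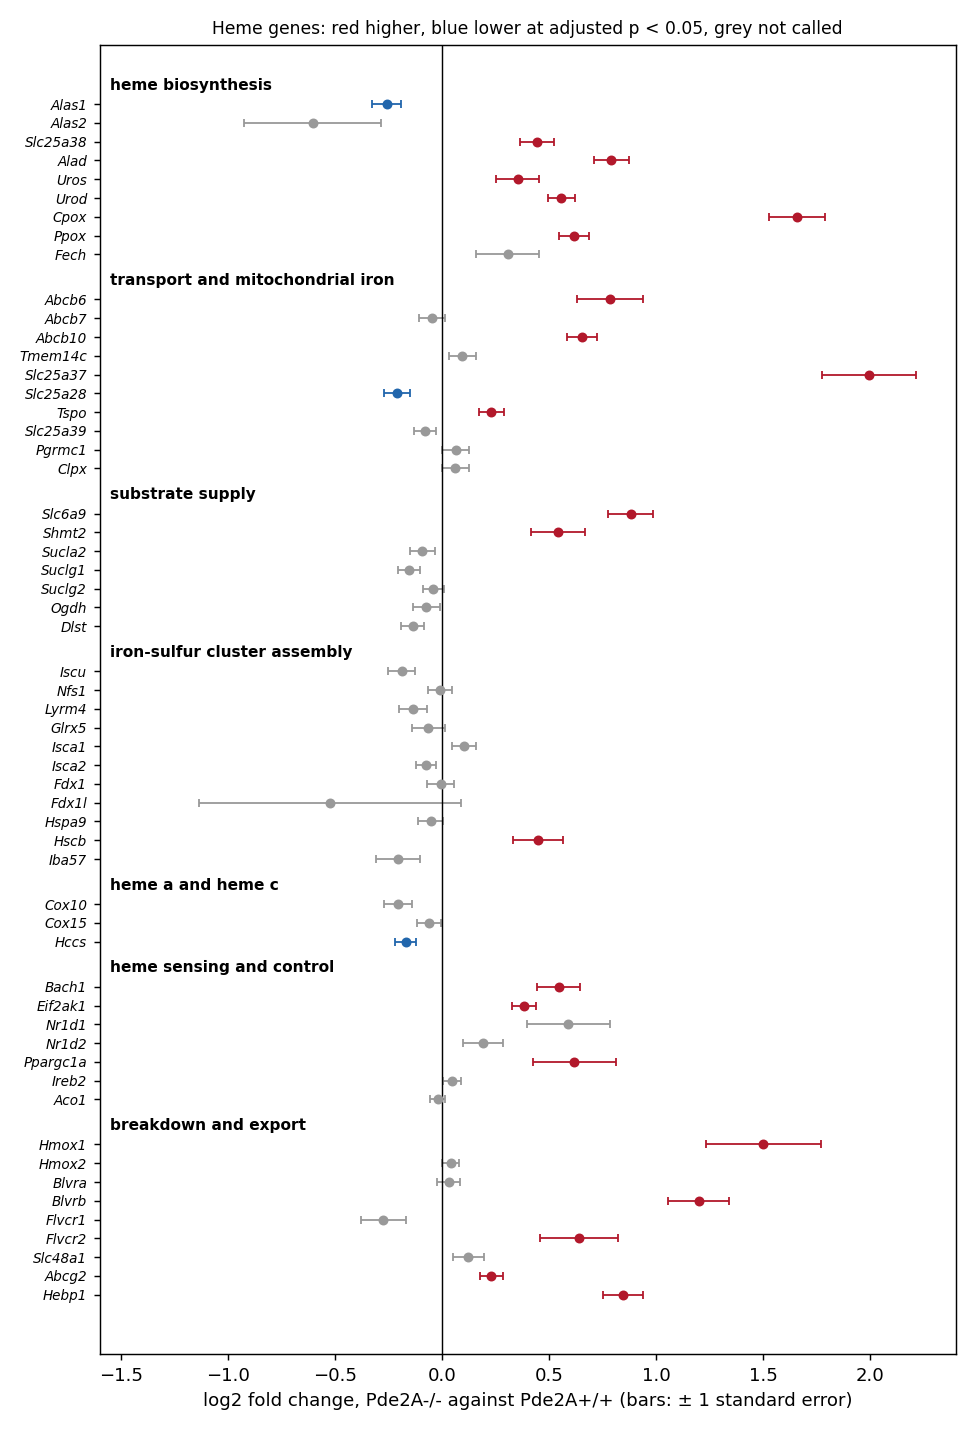
Log2 fold change of Pde2A-/- against Pde2A+/+ hearts for the 9 heme biosynthesis genes and 47 genes of 6 other lists of heme metabolism, with bars of 1 standard error, in red where called higher, in blue where called lower and in grey otherwise. The red points reach 1.996 for Slc25a37, 1.66 for Cpox and 1.502 for Hmox1, while the blue points, Alas1 among them, lie between -0.26 and -0.17.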

How the data were processed

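Reads were aligned by the authors to GRCm38 (mm10) using STAR, and the deposited files of the 11 hearts hold whole-number counts of reads per gene without normalization, on the sense strand of the gene, on the opposite strand and on both together. The version and settings of STAR were not given in the sources used here. Sense-strand counts were used, and 19.6% to 22.4% of the reads of a heart were left out, being unmapped, at several places, on no gene or on more than 1 gene. Gene names were taken from GENCODE M21, which matched 55227 of 55487 identifiers.

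With edgeR 4.0.16 in R 4.3.3, genes with at least 10 counts over all hearts were kept, libraries were scaled by TMM, and the genotypes were compared by the quasi-likelihood test without covariates. Log2 CPM used a prior count of 2. The common biological coefficient of variation was 16.8%. Ratios within a heart were compared by an exact permutation test over 462 splits, whose smallest p is 0.0022. Squared differences between hearts of the same genotype exceeded counting error by a factor of 16.0 or more, so no library was a copy of another. The 9 genes, the lists of other heme genes and of cell type markers, and the tests were chosen with earlier results of these data known. In each list the called genes with the largest changes, up to 3, were named, or 1 where none was called, with Slc25a37, Abcb10, Tmem14c, Hmox1, Blvrb, Flvcr1 and the globins always. The lists hold 1 gene, Fdx2, under its annotated symbol Fdx1l. Single results for 3 genes are left out of the text and plots, and the counts over lists include them.

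On simulated counts with 200 changed genes among 23668, edgeR recovered 98 of 100 genes with a log2 fold change of 2 and 94 of 100 with 1, with 8 wrong calls. Changes below a log2 value of 1, as in all the heme biosynthesis genes but Cpox, were not simulated. The alternatives were DESeq2 1.42.0, its size factors, filterByExpr, no filter, counts of both strands, globins left out, the naming style or Xist as a covariate, a fold change of at least 2, a prior count of 0.5 for the ratios, Alas2 distances within genotypes, and each heart left out. Plots were drawn with matplotlib 3.10.9.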

Additional observations from a re-analysis of the deposited data

How the results depend on the processing

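Over 45 named genes, 892 fold changes under 20 alternative settings gave 839 with the direction and the side of the threshold unchanged, 46 no longer called, 4 newly called and 3 of the opposite sign. The latter 3, in genes never called, were Hba-x (-0.03), Hbb-y (-0.064) and Mkrn1 (0.042) without the 4 hearts with liver transcripts, a setting chosen after seeing the data. In that setting 482 genes were called higher and 50 lower in place of 2160 and 1372, 4 heme biosynthesis genes were higher and 0 lower, and the counts were 2 higher and 0 lower for transport, 0 higher for iron-sulfur clusters, 1 for substrate supply, 2 for breakdown and export and 1 for heme sensing, 0 lower for heme a and heme c and for globins, 1 higher for liver, and 0 higher and 0 lower for cardiomyocytes. The differences of Alas2 against Alas1 and against the summed globins turned to 0.20 (p = 0.69) and 0.10 (p = 0.60) there by the exact permutation test. Fewer hearts were compared, and further causes were not tested.

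DESeq2 called 2354 genes lower, and 1 gene lower for iron-sulfur clusters, 2 for substrate supply, 1 for breakdown and export, 2 for heme a and heme c and 2 for cardiomyocytes. Calls that also required a fold change of 2 numbered 535 upward and 90 downward, and of the 9 heme biosynthesis genes 1 was higher and 0 lower. Of the 5 genes nearest to Alas2, 3 were shared when profiles were centred within genotypes. The scaling alternatives moved the median of all genes by less than 0.1 on the log2 scale.

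Leaving out each heart in turn gave 1288 to 2887 genes higher and 414 to 2165 lower, 5 to 6 heme biosynthesis genes higher and 0 to 1 lower. The genes called lower numbered 1 to 2 for transport, 0 to 1 for iron-sulfur clusters, 0 to 2 for substrate supply, 0 to 1 for breakdown and export, 0 to 2 for heme a and heme c, 0 to 2 for liver and 1 to 2 for cardiomyocytes, and those called higher 0 to 1 for iron-sulfur clusters and 0 to 1 for globins. Alas2 against Alas1 ranged from -0.437 to 0.076. The count of genes lower was lowest without Pde2A-/- replicate D and highest without replicate A. No paired analysis was possible because the genotypes share no replicate names.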
